A study of Salmo salar with 26 samples.

Results

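Alpha A crystallin was represented by a single contig, Unigene7428, among the 26681 assembled transcripts (unigenes) measured in Atlantic salmon (Salmo salar) lenses. It was chosen by its best protein hit, alpha A crystallin of coho salmon (Oncorhynchus kisutch), and its pathway annotation also named crystallin alpha A. The contig was 774 bases long. Of the 62 unigenes whose best hit was a crystallin, 23 were beta and 38 were gamma by the name of the hit. Hits named beta-crystallin S were counted as beta by that name alone. Unigene7428 was the only alpha crystallin. The lens label fitted the content: crystallins were among the most abundant transcripts in every library.

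RNA from whole lenses was sequenced in 26 fish. Of the 12 diploids, the lenses of 6 were clear (2N-) and those of 6 had cataract (2N+). Among the 14 triploids, 6 had clear lenses (3N-) and 8 had cataract (3N+). Each library is one lens sample labelled as its own fish. The labels name no treatment, strain or age; the fish were sorted by ploidy and their weight and length were recorded. The libraries held 9.76 to 11.95 M counted reads, of which 88144 to 367067 fell on alpha A crystallin, so counting error was small against the differences between lenses.

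Alpha A crystallin is a small heat shock protein and, in vertebrate lenses, both a structural protein of the fibre cells and a chaperone. It binds partly unfolded beta and gamma crystallins without using ATP and keeps them soluble, which matters in fibre cells that have lost their organelles and replace little of their protein. Mutations of the gene cause cataract in humans, and its loss leads to lens opacity in mice and zebrafish. The comparisons here concern whether its transcript level, alone or relative to its client crystallins, differed with cataract and ploidy.

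Alpha A crystallin was the crystallin with the fifth highest mean, 26098 RPKM (reads scaled by contig length and by counted reads), and ranked from 2 to 25 by RPKM within its library. In the 6 2N- lenses its level was 28188, 14557, 29314, 20366, 27027 and 23031 RPKM, a mean of 23747 ± 5619 (SD, n = 6). In the 6 2N+ lenses it was 25240, 39153, 40864, 27475, 26854 and 41823 RPKM, with a mean of 33568 ± 7799 (n = 6). The 2N+ lenses therefore formed 3 high and 3 lower values: the high 3 exceeded every other lens of the series, and the other 3 lay inside the 2N- range.

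In the 6 3N- lenses the level was 24936, 23753, 22447, 28801, 22762 and 28749 RPKM, with the smallest spread of the 4 groups (25241 ± 2872, n = 6). In the 8 3N+ lenses it was 19691, 24821, 30127, 10630, 31201, 26029, 14154 and 26563 RPKM (22902 ± 7420, n = 8). The 3N+ group held the lowest values of the series, in its replicates 4 and 7, and also 2 lenses above every 3N- lens. By mean RPKM the order was 2N+, 3N-, 2N- and 3N+. The step from 2N+ to 3N- (8327 RPKM) was larger than the SD of either group, whereas the steps from 3N- to 2N- (1494 RPKM) and from 2N- to 3N+ (845 RPKM) were smaller.

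RPKM values of a library share one total, and in these lenses much of that total is crystallin. The trimmed mean of M values (TMM), a factor that centres the bulk of the unigenes, averaged 0.944 ± 0.140 in the 2N- lenses (SD, n = 6) but 1.16 ± 0.209 in the 2N+ lenses (n = 6). For 3N- it was 0.961 ± 0.132 (n = 6), and for 3N+ 0.990 ± 0.124 (n = 8). Dividing by it gave scaled levels of 24927 ± 3406, 28723 ± 2898, 26442 ± 2461 and 22725 ± 5681 RPKM in the same order of groups. The order of the groups was kept, but every step between neighbours was then smaller than the larger of their SDs. Across the 26 lenses the highest level was 3.93-fold the lowest in RPKM as deposited and 2.57-fold after scaling. On the scaled values the 3 high 2N+ lenses no longer stood apart, at 30209, 29019 and 31982 RPKM: replicates 6 and 2 were still the highest of all lenses, but 2N+ replicate 4 followed at 30117 and 2N- replicate 3 at 29661. By contrast, 3N+ replicates 4 and 7 stayed lowest, at 12465 and 16254 RPKM.

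**Figure D1:**
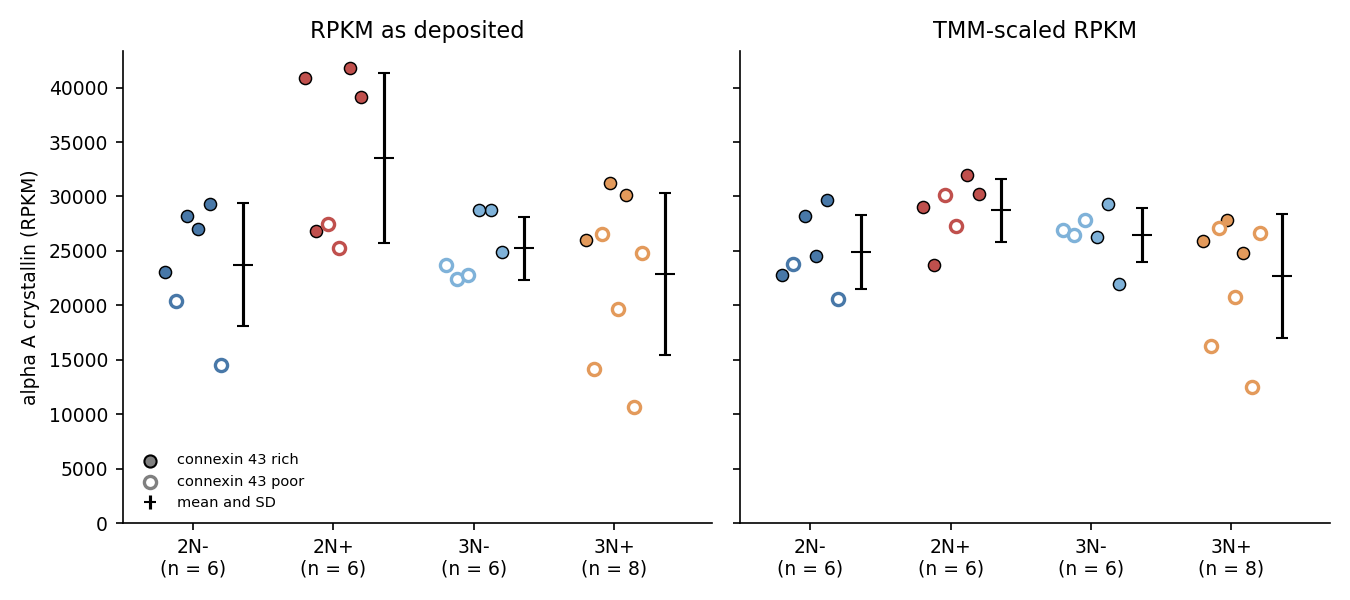
Alpha A crystallin in each lens (points; vertical axis in RPKM, starting at 0) by group, as deposited (left) and after TMM scaling (right), with the group mean and SD as bars; filled points are lenses rich in connexin 43 and open points lenses poor in it. Left, 3 of the 2N+ lenses lie at 39153 RPKM or higher; right, the groups overlap and 3N+ replicates 4 and 7 lie lowest in both panels.

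Alpha A crystallin did not pass the test for any comparison of the design. The test was limma's on log2 of the scaled RPKM plus 0.5, fitted to all 26 lenses and 19532 unigenes, with Benjamini-Hochberg adjustment. In diploids its log2 change with cataract was 0.21 ± 0.16 (SE; adjusted p = 0.669), in a contrast that called 1.37% of the unigenes. On RPKM as deposited the change was 0.51 (adjusted p = 0.158); there the median of all unigenes lay 0.265 higher on the log2 scale than after scaling. In triploids the change with cataract was −0.26 ± 0.15 (adjusted p = 0.647), in a contrast that called 0.087% of the unigenes. It shrank to −0.14 without 3N+ replicate 4 and to −0.05 ± 0.11 without 3N+ replicates 4 and 7 (limma adjusted p = 0.983), which was an alternative chosen after the data were seen. On the scaled values 3 of 6 2N+ lenses lay above every 2N- lens, and 3 of 8 3N+ lenses lay below every 3N- lens.

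Between the ploidies without cataract, the log2 change (3N- minus 2N-) was 0.09 ± 0.16 (limma adjusted p = 0.909), where 0.0666% of the unigenes were called. Between the lenses with cataract (3N+ minus 2N+) it was −0.38 ± 0.15, with an unadjusted p of 0.0156 and a limma adjusted p of 0.525, where 0.0102% were called. Without 3N+ replicates 4 and 7 it was −0.17 ± 0.11, with an unadjusted p of 0.121 (limma adjusted p = 0.998). No 3N+ lens exceeded the median of the 2N+ lenses, either as deposited or scaled. The deposited values gave −0.60 (adjusted p = 0.293) for this comparison, and the median change over all unigenes was then −0.21, against −0.01 after scaling. The interaction, which is the triploid minus the diploid cataract change, was −0.47 ± 0.22 (unadjusted p = 0.0377, limma adjusted p = 0.782; 0.00512% called), and −0.26 ± 0.15 without these 2 lenses (unadjusted p = 0.0947, limma adjusted p = 0.962). Averaged over the ploidies, the cataract change was −0.03 ± 0.11 (adjusted p = 0.963; 2.68% called) and changed sign, to 0.14, on the deposited values. It also turned positive, at no more than 0.032, when 2N- replicate 3, 2N+ replicate 5, 3N+ replicate 4 or 3N+ replicate 7 was left out. Averaged over cataract, the ploidy change was −0.14 ± 0.11 (adjusted p = 0.624; 0.261% called), and −0.04 without 3N+ replicates 4 and 7.

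**Figure D2:**
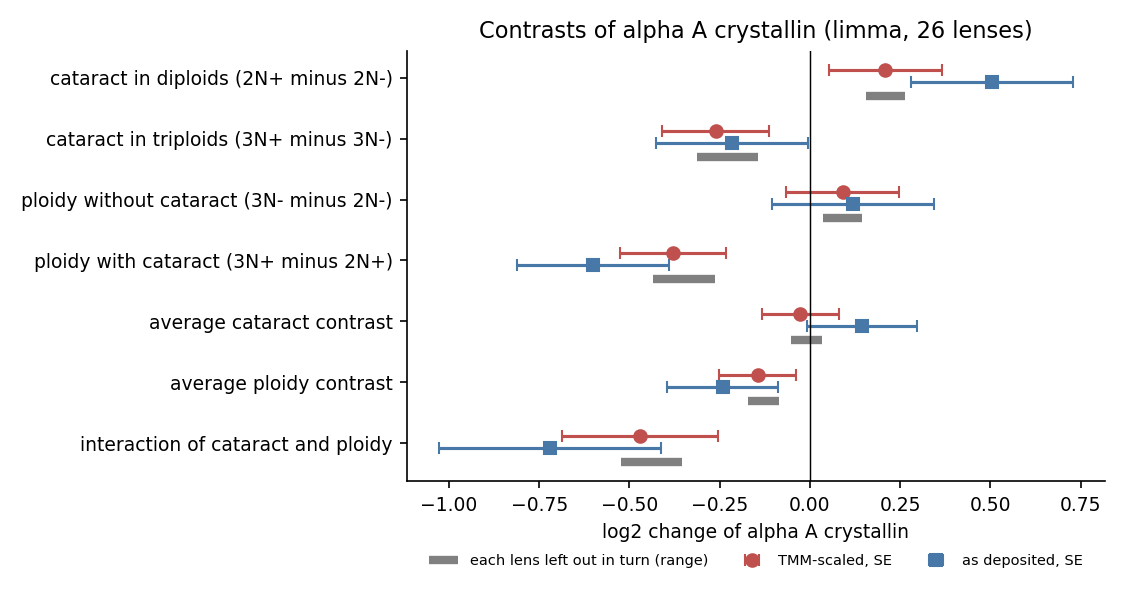
Log2 change of alpha A crystallin (horizontal axis) in the 7 contrasts, on TMM-scaled values (circles) and on RPKM as deposited (squares), with SE bars; grey bars span the scaled values with each lens left out in turn. The contrasts of the 2N+ group lie farther from 0 on the deposited values, and the average cataract contrast lies on both sides of 0.

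The ratio of alpha A crystallin to the other crystallins sets the chaperone transcript against those of its clients and does not depend on library scaling. It was expressed as a percent of the summed RPKM of the 61 beta and gamma unigenes, which took 422431 to 565525 RPKM per lens. In 2N- the ratio was 5.51, 2.59, 5.73, 3.60, 5.44 and 4.50% (4.56 ± 1.25%, SD, n = 6). In 2N+ it was 4.93, 8.93, 9.67, 5.08, 5.70 and 9.58% (7.32 ± 2.31%, n = 6). In 3N- it was 5.18, 4.45, 4.12, 5.66, 4.23 and 5.93% (4.93 ± 0.773%, n = 6), and in 3N+ it was 3.89, 4.75, 6.60, 2.03, 6.65, 5.42, 2.65 and 5.48% (4.68 ± 1.71%, n = 8). The diploid lenses with cataract stood highest, again through replicates 2, 3 and 6, and the other 3 groups differed from each other in mean by less than their SDs. The ratio spanned 4.78-fold over the lenses, against 1.34-fold for its denominator.

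In the ratio's exact two-sided permutation tests, the log2 difference with cataract was 0.67 ± 0.27 (SE) in diploids, a 1.59-fold higher ratio (p = 0.0411, adjusted p = 0.0823 over 4 comparisons). The 3 high 2N+ lenses lay above every 2N- lens. In triploids the difference was −0.16 ± 0.24 (exact permutation p = 0.573, adjusted p = 0.573), with 3 of 8 3N+ lenses below and 2 above all 3N- lenses. This difference was −0.0068 without 3N+ replicate 4 and turned to 0.14 ± 0.15 without replicates 4 and 7 (exact permutation p = 0.372, adjusted p = 0.496). Without cataract the triploids differed from the diploids by 0.15 ± 0.21 (exact permutation p = 0.515, adjusted p = 0.573). With cataract the triploid ratio was lower by a log2 difference of −0.69 ± 0.29 (exact permutation p = 0.0353, adjusted p = 0.0823), and 4 of 8 3N+ lenses lay below every 2N+ lens. Without 3N+ replicates 4 and 7 it was −0.38 ± 0.23 (exact permutation p = 0.115, adjusted p = 0.229). The diploid and the cataract comparison share the 2N+ lenses, and neither passed the adjusted threshold of 0.05. The smallest p these tests allow is 0.00216 for 6 against 6 lenses and 0.000666 for 8 against 6.

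In the diploids both terms of the ratio differed in mean. The other crystallins summed to 526661 ± 29344 RPKM in 2N- and 470282 ± 47369 RPKM in 2N+ (SD, n = 6 each), and to 515203 ± 27935 RPKM in 3N- (n = 6) and 497413 ± 28847 RPKM in 3N+ (n = 8). Within them, crystallins with a gamma name stood at 298745 and 263033 RPKM in 2N- and 2N+. Those with a beta name, beta-crystallin S included, stood at 227916 and 207248 RPKM. The 3 lenses with the highest alpha A had the lowest other-crystallin sums of the series, at 438401, 422431 and 436546 RPKM.

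**Figure D3:**
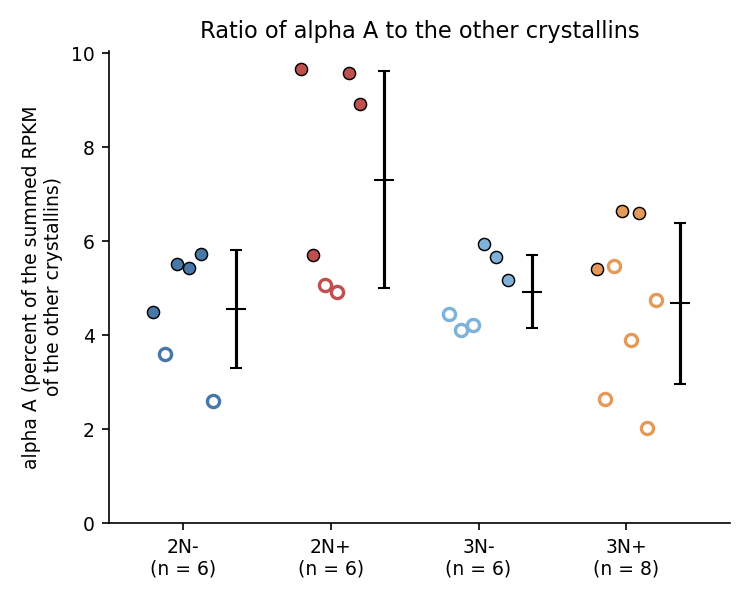
Alpha A crystallin as a percent of the summed RPKM of the other 61 crystallin unigenes (vertical axis, starting at 0) in each lens by group, with mean and SD; filled points are rich and open points poor in connexin 43. The 3 highest values of 2N+, from 8.93 to 9.67%, lie above all other lenses, and 3N+ replicate 4 lies lowest at 2.03%.

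Connexin 43, the gap junction protein of the lens epithelium, split the lenses into 14 that were rich in it, with 23.7 RPKM or more, and 12 that were poor, with 7.89 RPKM or less. Both kinds occurred in every group. Alpha A crystallin ran from 23031 to 41823 RPKM in the rich lenses and from 10630 to 27475 RPKM in the poor ones. On the scaled values the ranges overlapped more, from 21957 to 31982 and from 12465 to 30117 RPKM. In these bulk samples, fewer cells of a type and less RNA per cell cannot be told apart. The ratio of 4.50 to 5.73% in the 4 rich 2N- lenses stands beside 5.70 to 9.67% in the 4 rich 2N+ lenses, and 2.59 to 3.60% in the 2 poor 2N- lenses with 4.93 to 5.08% in the 2 poor 2N+ lenses. The log2 difference with cataract in diploids was thus 0.65 within the rich and 0.71 within the poor lenses. The split did not make connexin 43 equal within the rich lenses. There 2N+ replicates 2, 3 and 6 had 78.0, 109 and 96.5 RPKM of it, above the 58.0 to 72.1 RPKM of the rich 2N- lenses. The remaining rich 2N+ lens, replicate 5, had 23.7 RPKM of it and a ratio of 5.70%. A test chosen after the data were seen permuted the diploid lenses only within each kind and gave p = 0.00952 (exact permutation, adjusted p = 0.0381 over 4 comparisons). In triploids the rich and the poor lenses differed with cataract by 0.15 and −0.28 (exact permutation p = 0.708 within kinds, adjusted p = 0.708). With cataract, triploids differed from diploids by −0.42 within the rich and −0.51 within the poor lenses, and that comparison had p = 0.0626 (exact permutation, adjusted p = 0.0834). Without cataract the triploids differed from the diploids by 0.08 within the rich and 0.48 within the poor lenses (exact permutation p = 0.0343, adjusted p = 0.0686).

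The spread of alpha A crystallin over the 26 lenses stood apart from that of the other abundant crystallins, as a description of these libraries. Its coefficient of variation was 28.1% in RPKM as deposited, against 5.14 to 13.0% for the other 9 of the 10 most abundant crystallins. The most abundant, beta-crystallin B2-like CL1905.Contig1, a structural protein of the fibre, had 6.02% around 55493 RPKM. Among the 28 crystallins of at least 5000 RPKM, 2 varied more than alpha A. After scaling the position turned: alpha A varied by 17.3% and the other 9 by 18.1 to 26.6%. The deposited level of alpha A correlated with the TMM factor at r = 0.79 over the 26 lenses, and the summed other crystallins at r = −0.95. These correlations share each library's total and depth. Of the variation of the log2 scaled alpha A level, 24.6% lay between the 4 groups.

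**Figure D4:**
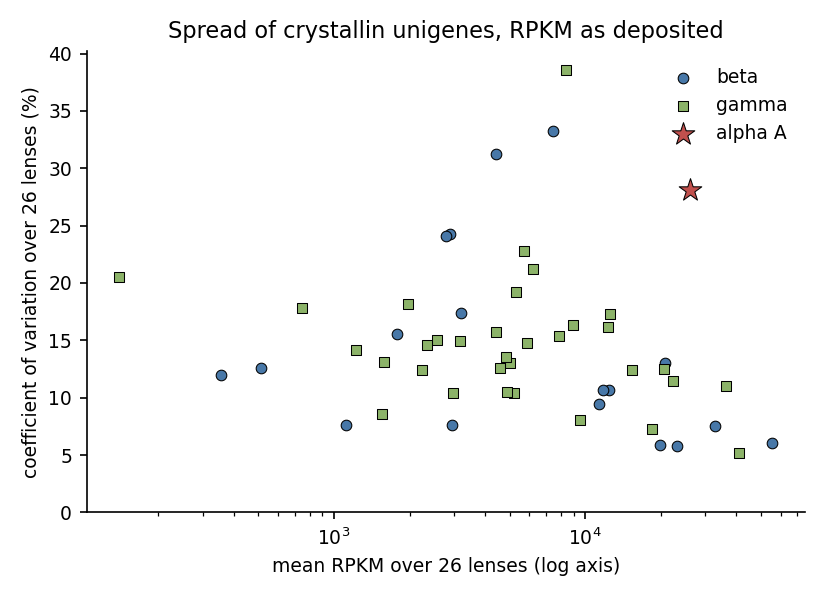
Coefficient of variation over the 26 lenses (vertical axis, percent) against mean RPKM (horizontal log axis) for the 52 crystallin unigenes with a mean of at least 100 RPKM, as deposited. Alpha A crystallin (star) lies at 28.1%, above every other crystallin of similar or higher abundance.

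Over all 26 lenses its level tended to run opposite to the other crystallins, more so on the deposited values. On the scaled values its correlation over the 26 lenses was negative with each of the 60 other crystallins tested, from −0.55 to −0.22 among the 9 most abundant. The median r over 5235 unigenes with a protein hit and at least 5 RPKM was −0.03. The 60 come from the same libraries and are not separate observations. On RPKM as deposited 4 of the 60 had a positive r. On RPKM as deposited alpha A against the summed other crystallins gave Pearson's r = −0.73 (permutation adjusted p = 0.00068 over 17 relations) and Spearman's rho = −0.76 (permutation adjusted p = 0.00102). Without the 2 lenses farthest in crystallin sum r was −0.63. The same relation on scaled values had r = −0.39 (permutation adjusted p = 0.313) and rho = −0.33 (permutation adjusted p = 0.632), and within groups r ran from −0.68 in 3N+ to 0.57 in 3N-. Since RPKM values of a library compete for one total, part of a negative relation is built into the deposited scale.

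On the scaled values most other crystallins changed the other way from alpha A in the comparisons with 2N+. In diploid cataract 58 of the 61 crystallins tested had a log2 change below 0 (median −0.47, against 0.02 over all unigenes), and 7 were called lower where 1.1% of all unigenes were; alpha A, at 0.21, was one of the remainder. On RPKM as deposited the crystallins' median was −0.20 and 18 were called lower, where 1.13% of all unigenes were. In triploid cataract 41 of 61 lay below 0 (median −0.08) and none was called by limma or by voom; 2 had an unadjusted p below 0.05, as did 8.94% of all unigenes. In the comparison of 3N+ with 2N+, alpha A was one of 5 tested crystallins below 0, at −0.38 against a median of 0.31. Its interaction of −0.47 was one of 3 below 0, against a crystallin median of 0.47. On RPKM as deposited the crystallin median was 0.09 for 3N+ against 2N+, where alpha A stood at −0.60. The deposited interaction had a median of 0.22, with alpha A at −0.72. By name, the deposited medians for 3N+ against 2N+ were −0.02 for beta and 0.26 for gamma crystallins. The beta median thus lay below 0 there, as alpha A did.

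Small heat shock proteins other than alpha A were sparse in the table. Of 4 unigenes with such a hit, alpha A included, 3 were expressed enough to be tested, and limma called none in any contrast. In the comparison of 3N+ with 2N+ the unadjusted limma p was 0.0156 for alpha A, 0.0428 for Hsp27beta and 0.0693 for the 27 kDa heat shock protein 1 contig. For the interaction it was 0.0377 for alpha A. The share of all unigenes with so low an unadjusted p was not taken there. These p-values are therefore not read as a result about the list. The 27 kDa heat shock protein 1 contig CL1826.Contig1, a stress-inducible small chaperone that also binds actin, averaged 879 RPKM. Its group levels were 824 ± 257 RPKM in 2N-, 1101 ± 227 in 2N+, 891 ± 72.9 in 3N- and 746 ± 333 in 3N+ (SD, n = 6, 6, 6 and 8). Its log2 change was 0.17 ± 0.30 in diploid cataract (limma adjusted p = 0.915) and −0.52 ± 0.28 in triploid cataract (limma adjusted p = 0.629). Hsp27beta, Unigene3391, stood at 483 ± 201, 755 ± 204, 431 ± 99.6 and 455 ± 173 RPKM in the same groups. Its changes were 0.40 ± 0.29 (limma adjusted p = 0.637) and −0.04 ± 0.27 (limma adjusted p = 0.991). The untested contig, CL1923.Contig2, averaged 0.275 RPKM.

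By Pearson's r of the scaled log2 level over the 26 lenses, the unigene most like alpha A was this same 27 kDa heat shock protein 1 contig. The search covered 5235 unigenes with a protein hit and a sufficient level. Pearson's r was 0.93, Spearman's rho was 0.79 and r after subtracting the group means was 0.93. In 3N+ replicate 4, the lens with the lowest alpha A, the heat shock protein stood at 167 scaled RPKM. It stood at 412 in 3N+ replicate 7 and at 590 in 2N- replicate 2, the lenses with the next lowest alpha A, and at 684 or more in the rest. Without 3N+ replicates 4 and 7, r was 0.79. Within the lenses rich in connexin 43 r was 0.78 (n = 14), and within the poor ones 0.98 (n = 12).

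The next most alike were PEA3 (CL2791.Contig2, an ETS family transcription factor, r = 0.89), an unnamed product (CL3137.Contig1, r = 0.89) and peptidylarginine deiminase (CL2157.Contig1, which converts arginine to citrulline in proteins, r = 0.88). They were followed by gelsolin contigs, which encode an actin-severing protein (Unigene8758, r = 0.87, and CL1331.Contig2, r = 0.86). PEA3 had rho = 0.88, above the 0.79 of the 27 kDa contig, and the other 4 had rho from 0.61 to 0.72. After subtracting the group means, r was 0.936 for CL3137.Contig1 and 0.931 for the 27 kDa contig. On RPKM as deposited r was 0.95 for PEA3, 0.94 for CL3137.Contig1 and 0.93 for peptidylarginine deiminase. The 27 kDa contig had 0.91 there, so its first place depended on the measure. Without 3N+ replicates 4 and 7 the scaled r of these 5 unigenes fell to between 0.59 and 0.74. The 3 least alike were SJCHGC03036 (Unigene8756, r = −0.71), a G(q) alpha subunit-like contig (CL2282.Contig1, r = −0.69) and CG024 (Unigene3331, r = −0.68). Without 3N+ replicates 4 and 7 these were −0.57, −0.57 and −0.53, and on RPKM as deposited they were 0.06, −0.08 and −0.36, so the negative relation of the first was not present on that scale. Hsp27beta had r = 0.56 and rho = 0.42. Its r was 0.37 without 3N+ replicates 4 and 7, and within groups it ran from −0.41 in 2N+ to 0.72 in 3N-. These correlations over 26 libraries are descriptions, since the values share library and scaling factor.

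**Figure D5:**
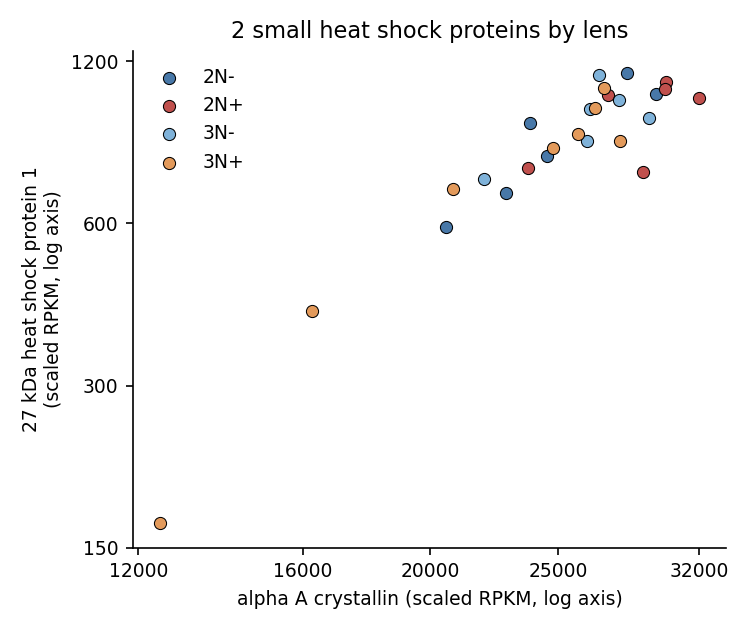
Scaled RPKM of the 27 kDa heat shock protein 1 contig (vertical log axis) against that of alpha A crystallin (horizontal log axis), one point per lens, coloured by group. 3N+ replicates 4 and 7 lie low on both axes, and r is 0.93 with them and 0.79 without them.

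Among regulators of crystallin genes, 35 of 41 listed unigenes were tested, and 2 were called in the average cataract contrast. The Maf-like contig Unigene8519, of a transcription factor family that drives crystallin genes in mouse fibre cells, rose with cataract by 0.58 ± 0.10 averaged over ploidies (limma adjusted p = 0.00134). It stood at 10.2 ± 1.79, 19.2 ± 3.09, 12.9 ± 1.42 and 20.1 ± 4.96 RPKM in 2N-, 2N+, 3N- and 3N+ (SD, n = 6, 6, 6 and 8). Sox-2, CL858.Contig1, which acts with Pax6 in early lens induction in chick and mouse, fell by 0.63 ± 0.17 (limma adjusted p = 0.0378). In the average contrast 0.814% of all unigenes were called higher and 1.87% lower. On RPKM as deposited 4 regulators were called higher and 2 lower, where 5.72% of all unigenes were called higher and 1.61% lower.

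Of the ATP-dependent chaperones and their partners, to which small heat shock proteins pass bound clients, 89 unigenes were tested. With cataract, averaged over ploidies, 18 had an unadjusted limma p below 0.05, 14 of them lower, against 14.5% of all unigenes. On RPKM as deposited limma called 9 higher and 8 lower, where 5.72% of all unigenes were called higher and 1.61% lower. On the scaled values voom called 8, but its share over all unigenes was not taken. There limma called none higher and 8 lower, where 0.814% of all unigenes were called higher and 1.87% lower. They included DnaJ B5-like contigs, cochaperones of heat shock protein 70 (Unigene13131, −0.89 ± 0.15, limma adjusted p = 0.00108; Unigene9627, −0.98 ± 0.16, limma adjusted p = 0.00113), and heat shock protein 70 contigs (Unigene6290, −0.85 ± 0.16, limma adjusted p = 0.00314; Unigene8846, −0.80 ± 0.15, limma adjusted p = 0.00366). In the order named, these DnaJ contigs averaged 3.58 and 3.29 RPKM and these heat shock protein 70 contigs 30.2 and 26.8 RPKM. A more abundant heat shock 70 kDa protein contig, Unigene7545 (215 RPKM), changed by 0.01 ± 0.20 (limma adjusted p = 0.991). The list's median change was −0.01, against 0.01 over all unigenes. The constitutive heat shock cognate 71 kDa contig CL574.Contig1 stood at 1296 ± 110, 1483 ± 76.3, 1417 ± 82.8 and 1426 ± 116 RPKM in the 4 groups.

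The lens fibre list, whose intermediate filament proteins bind alpha crystallin in mammals, had 19 tested unigenes. In the average cataract contrast 2 of the 19 were called lower, where 1.87% of all unigenes were. These were filensin-like CL655.Contig4 (−0.51 ± 0.13, limma adjusted p = 0.0248) and phakinin CL833.Contig2 (−0.61 ± 0.15, limma adjusted p = 0.025). Voom called 3 of the list, but its share over all unigenes was not taken. On RPKM as deposited limma called 5 lower, where 1.61% of all unigenes were called lower. An unadjusted limma p below 0.05 was reached by 9 of the list, all of them lower, against 14.5% of all unigenes. None of the 13 lens epithelium unigenes tested was called by limma or voom in that contrast, and 1 had an unadjusted p below 0.05, against 14.5% of all unigenes.

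Markers of other cell types varied between lenses, and their part in the alpha A values was not tested. The retina list summed to 92.7 to 241 RPKM in 2N-, 109 to 3571 in 2N+, 96.6 to 2213 in 3N- and 118 to 556 in 3N+. Of the 3 lenses with the highest alpha A, 2N+ replicates 2 and 3 had 3571 and 1038 RPKM and replicate 6 had 161. These 3 lenses also had the lowest lens fibre list sums of the series, at 6704, 6926 and 6993 RPKM. Their connexin 43 levels were the highest of the series, at 78.0, 109 and 96.5 RPKM. Their lens epithelium sums were 1975, 2023 and 2143 RPKM. The erythrocyte list summed to 4.78 to 95.7, 16.6 to 1374, 6.97 to 2028 and 7.89 to 691 RPKM in the 4 groups. The surface keratins reached 149 RPKM in 2N-, 415 in 2N+, 147 in 3N- and 881 in 3N+. Lens epithelium markers summed to 787 RPKM in 3N+ replicate 4, the lowest of the series, and to 967 to 2146 RPKM in the rest. Most of this sum was 1 unigene, vimentin (Unigene7433), which averaged 1502 RPKM over the 26 lenses where the sum averaged 1591. The sum therefore says little about the other markers of the list. Leukocyte markers stayed at or below 2.81 RPKM. In the average cataract contrast none of the tested members of the retina (13 of 26), erythrocyte (4 of 4), surface keratin (8 of 9), muscle (8 of 12) and pigment cell (2 of 2) lists was called by limma or voom on the scaled values. Of all unigenes limma called 2.68% there. From RPKM as deposited limma called 1 retina, 1 keratin and 2 muscle unigenes higher, where 5.72% of all unigenes were called higher. On the scaled values, unadjusted limma p-values below 0.05 were reached by 2 erythrocyte, 5 keratin and 3 muscle unigenes, all of them higher. Of all unigenes 14.5% reached this, in either direction.

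Body weight differed between the diploid groups, at 257 ± 80.6 g in 2N- and 596 ± 158 g in 2N+ (SD, n = 6 each), so weight and cataract cannot be told apart there. Over the 26 lenses the scaled alpha A level and log2 body weight had r = −0.01 and rho = 0.17 (permutation adjusted p = 0.998 and 0.669 over 17 relations), and r = −0.04 without the 2 fish farthest in weight. Within groups r ran from −0.28 in 3N+ to 0.49 in 3N-. With counted reads per library, r was 0.32 (permutation adjusted p = 0.583) and rho was 0.57 (permutation adjusted p = 0.0534), r was 0.37 without the 2 farthest lenses, and r within groups ran from 0.14 to 0.50. With log2 connexin 43, r was 0.43 in the rich and −0.35 in the poor lenses (permutation adjusted p = 0.583 and 0.614). On RPKM as deposited these were 0.63 and −0.26 (permutation adjusted p = 0.0554 and 0.709). Without the 2 farthest lenses the deposited r in the rich lenses was 0.75.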

How the data were processed

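Alpha A crystallin was measured in 26 lens libraries. The members, lists and comparisons were chosen with earlier results of these data known. The authors deposited 1 table of RPKM values with each unigene's best protein hit; the sources used here name no aligner, assembler or genome build. A dash was read as 0. Names are the table's hits, and a contig may collect reads of near-identical gene copies, so that paralogs of alpha A cannot be separated. The RefSeq gene table of the species holds 1 gene with the symbol cryaa; no sequence was used here.

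Whole reads were recovered from the RPKM values for 100% of unigenes (tolerance of 0.01 reads); a count model had been planned, but the deposited unit is RPKM, so limma (version 3.58.1, R 4.3.3, trend and robust) was the main test. TMM factors (trims of 0.3 and 0.05) were programmed on recovered reads and checked on simulated data. Unigenes with at least 10 reads, at the median library size, in at least 6 libraries and at least 15 reads in all were tested, on log2 of scaled RPKM plus 0.5, with Benjamini-Hochberg adjustment and a threshold of 0.05. Ratios were tested by exact two-sided permutation and relations by two-sided permutation (exact within groups of up to 8 lenses, otherwise 100000 resamples) in scipy 1.17.1. Each library is labelled as its own fish.

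By rule, the unigenes named in the text come from this set: Unigene7428, the small heat shock proteins, the most abundant crystallins and list members, up to 4 called members per list, and the 6 most and 3 least alike unigenes with a mean of at least 5 RPKM. Not every abundant crystallin or abundant list member of the set is named, and most list members named are called ones. Same-numbered lenses were checked for pairing, and residual correlations exceeded 0.1 in 18 of 36 pairs. The rate among lenses of different numbers was not computed, so this check cannot decide whether they were paired. The numbers were not read as pairs, and a replicate block was fitted as an alternative. Alternatives were the deposited scale, other scaling, pseudocount, filter and weights, voom, and leaving out each lens.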

Additional observations from a re-analysis of the deposited data

Results flagged for a closer look

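The cataract difference in the ratio of alpha A crystallin to the other crystallins was compared between the ploidies. It was 0.67 in diploids and −0.16 in triploids on the log2 scale, a difference of −0.84 (exact permutation of the cataract labels within each ploidy, two-sided, over all 2774772 combinations, p = 0.0418). This test was added after the data were seen, and its p is not adjusted. Permuting the labels assumes no cataract difference in either ploidy. Its p is therefore not an exact test of equal differences in the 2 ploidies. The 2N- fish were the lightest group in mean, and this permutation took no account of body weight. In the ratio 3 of 6 2N+ lenses lay above every 2N- lens, while 3 of 8 3N+ lenses lay below and 2 above every 3N- lens. The difference was −0.68 without 3N+ replicate 4 (p = 0.0742), −0.73 without replicate 7 (p = 0.0707) and −0.53 without both (p = 0.14), each by the same exact permutation. The limma interaction of the alpha A level itself did not pass (adjusted p = 0.782). Of 32 groups of values searched for a single distant lens, none had one, where chance gives about 1 in 20. The search can miss 2 lenses that lie low together, as 3N+ replicates 4 and 7 did. The 32 groups also share lenses and are not independent.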

How the results depend on the processing

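No alternative brought the alpha A level past the threshold in any contrast, and 250 of its 256 alternative values kept their direction. The 6 that did not concern the average cataract contrast, which was 0.14 on RPKM as deposited, 0.078 without 3N+ replicates 4 and 7 (chosen after seeing the data) and −0.053 to 0.032 with each lens left out. For a comparison of 2 groups, leaving out a lens of another group cannot move the alpha A change. Part of the 250 was therefore fixed in advance. Of the ratio's 88 alternative values, 85 kept direction and call. The triploid cataract ratio turned to 0.14 without 3N+ replicates 4 and 7. The ratio of 3N- to 2N- ran from −0.0014 to 0.23 with each lens left out, the lowest without 2N- replicate 2. The diploid cataract ratio, still 0.67, passed (adjusted p = 0.0381) when permuted within connexin 43 kinds, and had adjusted p from 0.0381 to 0.188 over the alternatives other than leaving out lenses. Within the rich kind, connexin 43 itself was not equal in the 2N- and 2N+ lenses. The cause of the change in call was not tested.

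With log2 body weight as covariate, alpha A changed by 0.23 ± 0.21 (SE) in diploid and −0.26 ± 0.15 in triploid cataract. With log2 connexin 43 as covariate these were 0.22 ± 0.14 and −0.26 ± 0.13. With a replicate block, alpha A changed by 0.21 in diploid and −0.24 in triploid cataract, and the ratio by 0.67 and −0.10. The block changed no call; 3 of 26 lenses were closest to one of their own number.

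On RPKM as deposited, the relation with the other crystallins passed (−0.73 over all lenses) and was −0.73 in 3N-, where its sign turned. Signs also turned for body weight over all lenses (0.050) and in 2N+ (−0.63), and for counted reads in 2N+ (−0.31), 3N- (−0.39) and 3N+ (−0.012).

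The planned edgeR and DESeq2 fits were not run, because the deposited unit is RPKM. With at least 88144 reads per library, counting error is small for this transcript; the SE of its diploid change was 0.16 on scaled values, 0.22 on RPKM as deposited and 0.11 without 3N+ replicates 4 and 7.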
